A study of Mus musculus with 6 samples.

Results

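The angiogenic growth factor receptors described here are 10 genes of the mouse tumor cell line 4T1-T: the VEGF receptors Flt1, Kdr and Flt4, the neuropilins Nrp1 and Nrp2, the angiopoietin pathway receptors Tie1 and Tek, the PDGF receptors Pdgfra and Pdgfrb, and the HGF receptor Met. They were selected by gene symbol from 53379 genes in the count table. Of the 10, 9 were also listed among the 15973 protein-coding genes that were compared between populations, and Flt4 was found in the count table alone. 4T1-T is 1 clonal derivative of the 4T1 mouse mammary carcinoma line, described in its labels as a VM (vasculogenic mimicry) sub-clone, so that all values concern a single clone in culture. VM is the formation of blood-conducting channels by tumor cells themselves.

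Cells were serum-starved overnight in Opti-Mem with BSA and given fluorescent acetylated low-density lipoprotein (acLDL) at 10 ug/mL for 4 h. They were returned to complete medium for 1 h before sorting. AcLDL is a modified lipoprotein that endothelial cells and macrophages take up through scavenger receptors, and its uptake is used as an assay of endothelial-like behaviour. The 25% of cells with the most fluorescence (acLDL-high) and the 25% with the least (acLDL-low) were collected, with no unsorted or acLDL-free group analysed here. Each population was sequenced in 3 libraries, 1 from each of 3 separate occasions, and libraries with the same replicate number were treated as a pair from 1 occasion. The 6 libraries held between 70263372 and 94216786 counts.

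These receptors read the signals that build blood vessels. VEGF ligands act on endothelial cells mainly through KDR. FLT1 binds VEGF-A, VEGF-B and PGF with weaker kinase activity, and also exists as a soluble form that sequesters ligand. FLT4 serves VEGF-C and VEGF-D in lymphatic endothelium. Neuropilins have no kinase domain and act as co-receptors for VEGFs and for class 3 semaphorins. TEK binds the angiopoietins and TIE1 modulates it. PDGFRA and PDGFRB mark mesenchymal cells and pericytes, and MET is common on epithelial and carcinoma cells.

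Flt1 and Kdr are shown first, as related VEGF receptors with unlike counts. Flt1 had at least 5353 counts in every library and Kdr at most 2. Given is the sequence directly upstream of the annotated gene, taken from RefSeq for build GRCm38.p6. CG dinucleotides, the sites of DNA methylation in mammals, are in capitals, and both genes lie on the minus strand. The Flt1 sequence is chr5:147726012-147726261 (250 bases) and the Kdr sequence chr5:75978459-75978705 (247 bases).
Flt1: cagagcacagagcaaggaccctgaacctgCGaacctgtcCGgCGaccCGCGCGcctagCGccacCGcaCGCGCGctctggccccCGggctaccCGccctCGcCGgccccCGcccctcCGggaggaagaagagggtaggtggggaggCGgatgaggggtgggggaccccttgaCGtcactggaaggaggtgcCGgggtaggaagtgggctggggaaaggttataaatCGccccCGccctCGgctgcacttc
Kdr: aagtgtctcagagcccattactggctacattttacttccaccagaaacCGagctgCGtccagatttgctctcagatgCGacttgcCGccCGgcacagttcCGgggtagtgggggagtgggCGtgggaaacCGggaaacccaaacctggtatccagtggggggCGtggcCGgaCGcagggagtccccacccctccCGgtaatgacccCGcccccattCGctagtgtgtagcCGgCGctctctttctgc
The Flt1 stretch held 23 CG dinucleotides and the Kdr stretch 16. The median over 32851 RefSeq promoters was 6 in the 250 bases before the start. Of all those promoters, 13.3% had at least as many as Flt1 and 25.4% at least as many as Kdr. Of the other receptors, Nrp2 had 32, Met 24, Flt4 16, Nrp1 11, Tie1 6, Pdgfra 4 and Tek 2, and Pdgfrb had no window. Not all of these windows lay upstream of the gene spans given below. Those of Flt4 and Nrp1 lay wholly inside the span, as did 157 of the 250 bases for Met, 212 for Tie1 and 32 for Nrp2. In the windows of these 9 receptors, the CG count did not separate receptors with reads from those without. These counts describe the letters in this window, and methylation was not measured.

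Of the 10 receptors, 5 were expressed above 1 RPKM (counts scaled to library size and divided by the exon length in kilobases, the scale on which levels of different genes are compared here). In descending order of mean RPKM over the 6 libraries these were Nrp2 (65.9), Met (22.8), Flt1 (8.60), Pdgfra (3.59) and Nrp1 (1.56). Tie1 followed at 0.290. Tek, Kdr, Pdgfrb and Flt4 were at or near 0 counts. The libraries come from bulk populations, in which fewer cells of a type and less RNA per cell cannot be told apart.

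**Figure D1:**
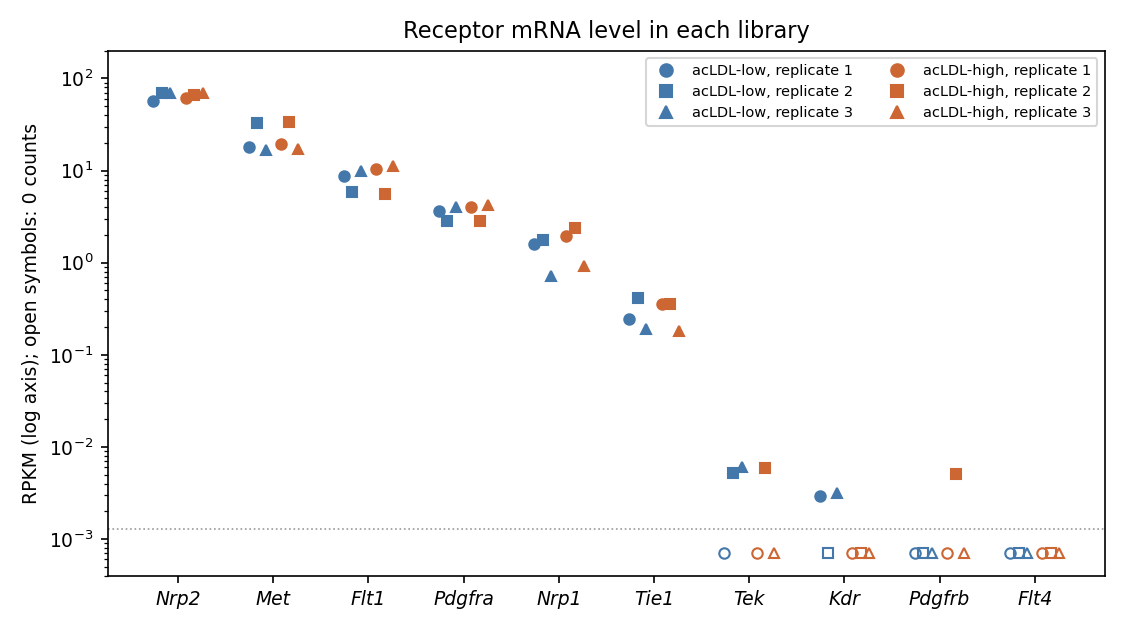
Level of each receptor in RPKM on a log axis, 1 symbol for each of the 6 libraries, with color for the sorted population and shape for the replicate number; open symbols under the dotted line are libraries with 0 counts, placed there because 0 has no position on a log axis. Nrp2 lies between 56.6 and 70.3 RPKM, Tie1 between 0.179 and 0.413, and Tek, Kdr, Pdgfrb and Flt4 at or near 0.

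Among the VEGF receptors, nearly all reads were from Flt1 (ENSMUSG00000029648; chromosome 5, 147561604 to 147726011, GRCm38). Its RPKM was 8.70, 5.83 and 9.93 in acLDL-low replicates 1, 2 and 3, and 10.3, 5.51 and 11.3 in acLDL-high. Replicate 2 was lowest in both populations. Kdr (ENSMUSG00000062960; chromosome 5, 75932827 to 75978458), the main signaling receptor for VEGF-A in endothelium, had 2, 0 and 2 counts in the acLDL-low libraries and 0, 0 and 0 in acLDL-high. Flt4 (ENSMUSG00000020357; chromosome 11, 49609263 to 49652739) had 0 counts in all 6 libraries. A count of 0 allows up to 3 counts. In the libraries with 0 counts this is 0.00358 to 0.00462 RPKM for Kdr and 0.00392 to 0.00521 RPKM for Flt4, depending on the library. Flt1 therefore took between 99.98% and 100% of the counts of the 3 genes in each library, and the lowest Wilson 95% bound was 99.92%. The mates of a read pair can count separately in such a table, and 72.3% of counts from 1 to 10 were even. A count of 2 may therefore be a single fragment. Intervals and floors concern counting error only and treat counts as independent. If mates were counted separately, the intervals are too narrow and the floors too low.

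Of the neuropilins, Nrp2 (ENSMUSG00000025969; chromosome 1, 62703285 to 62818695) was the most abundant of the 10 receptors in every library. It ranked between 542 and 698 among the 15973 protein-coding genes by RPKM, with 56.6, 70.3 and 70.1 RPKM in acLDL-low and 61.8, 66.9 and 70.0 in acLDL-high. Nrp1 (ENSMUSG00000025810; chromosome 8, 128358604 to 128503363) had 1.59, 1.77 and 0.714 RPKM in acLDL-low and 1.94, 2.41 and 0.910 in acLDL-high. Per length, Nrp2 exceeded Nrp1 by between 27.7-fold and 98.2-fold within a library, or by 18.2-fold to 64.4-fold with the length of the longest transcript. Nrp1 was lowest in the replicate 3 pair, whereas Nrp2 was not.

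Met (ENSMUSG00000009376; chromosome 6, 17463800 to 17573980) had 17.8, 32.5 and 16.7 RPKM in acLDL-low and 19.3, 33.7 and 17.1 in acLDL-high. Both replicate 2 libraries stood above the other 4. Pdgfra (ENSMUSG00000029231; chromosome 5, 75152292 to 75198215) had 3.61, 2.80 and 4.05 RPKM in acLDL-low and 3.99, 2.84 and 4.27 in acLDL-high, lowest in replicate 2. Its exons share 456 bases with the opposite-strand gene Gm42802 and 166 with Gm42803. These had at most 9 and 2 counts in a library against at least 2050 for Pdgfra. Pdgfrb (ENSMUSG00000024620), the receptor of pericytes, had 2 counts in acLDL-high replicate 2 and 0 counts in the other 5 libraries.

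Tie1 (ENSMUSG00000033191; chromosome 4, 118471191 to 118490061) was read at a low level, with 90, 164 and 65 counts in acLDL-low and 141, 126 and 82 in acLDL-high. Tek (ENSMUSG00000006386; chromosome 4, 94739289 to 94874976), the angiopoietin receptor with which TIE1 pairs, had 0, 2 and 2 counts in acLDL-low and 0, 2 and 0 in acLDL-high. Every nonzero count of Tek, Kdr and Pdgfrb was 2. No difference between the populations was detectable at this depth for these genes or for Flt4, and no fold change was computed for the 4 of them.

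Each step in the order from Nrp2 to Tie1 was seen in 6 of 6 libraries. The narrowest was Pdgfra over Nrp1, with a ratio of RPKM from 1.18 to 5.67, and the next Met over Flt1, from 1.52 to 6.12. With the length of the longest transcript in place of all exon bases, these steps held in 4 of 6 libraries each, and the order of Met and Flt1 and of Pdgfra and Nrp1 is therefore not set by these data. Nrp2 over Met, Flt1 over Pdgfra and Nrp1 over Tie1 held in 6 of 6 libraries under both lengths.

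The 8 receptor tyrosine kinases among the 10 receptors were placed beside 51 other genes of the receptor tyrosine kinase families. Whether each listed gene encodes an active tyrosine kinase was not checked. Met ranked 6 of 59 by mean RPKM, after Axl (170), Epha2 (148), Ddr2 (40.8), Ephb4 (33.1) and Ryk (25.8). Flt1 ranked 12 at 8.60 RPKM, just after Fgfrl1 at 8.61. Pdgfra ranked 19 and Tie1 32, next to Egfr at 33 with 0.266 RPKM. These ranks use the length of all exon bases. With the length of the longest transcript Flt1 was at 16.8 RPKM and Met at 25.8, and the ranking was not repeated with that length. Met reached about the level of Ryk, whose range across libraries (23.2 to 28.7 RPKM) lies inside that of Met (16.7 to 33.7). Kdr, Flt4, Tek and Pdgfrb were far below all of these.

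**Figure D2:**
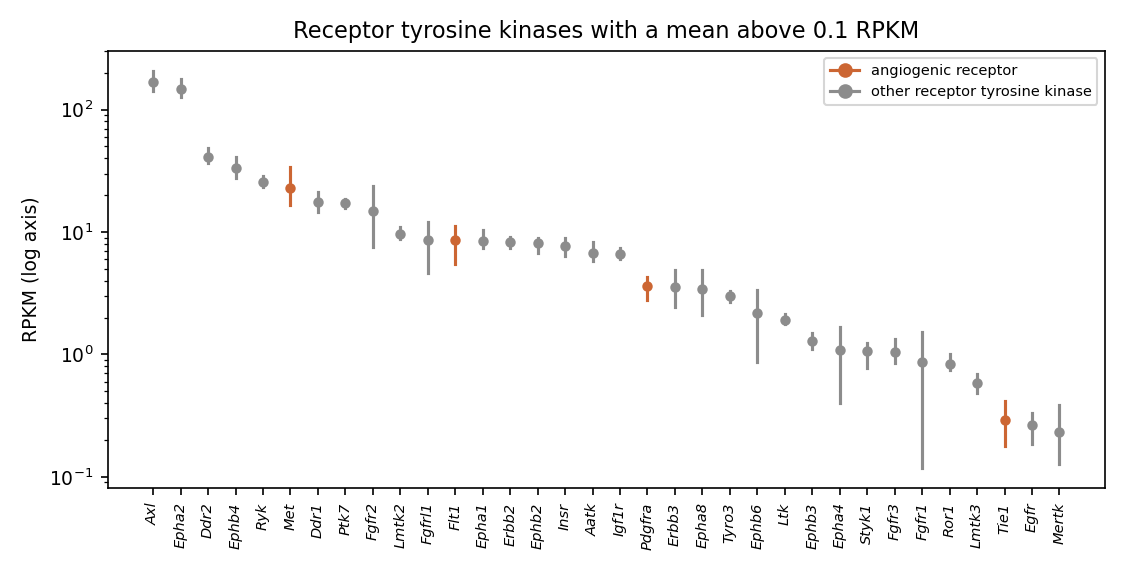
Mean level over the 6 libraries (points) and lowest to highest library (lines) in RPKM on a log axis. Shown is each listed gene of the receptor tyrosine kinase families above 0.1 RPKM, with angiogenic receptors in orange and other listed genes in grey. Met is 6th at 22.8, Flt1 12th at 8.60, Pdgfra 19th at 3.59 and Tie1 32nd at 0.290.

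The comparison of acLDL-high with acLDL-low cells asked whether tumor cells that took up more acLDL differ in these receptors. Nrp1 was higher in acLDL-high cells, and none of the other receptors passed the test. Of the 6 receptors with enough counts to be tested, 1 was called higher and 0 lower at an adjusted p under 0.05 (edgeR, occasion as a block, adjusted over 12572 genes). At an unadjusted p under 0.05 the counts were also 1 and 0, and DESeq2 with the block likewise called 1 and 0. Of all genes tested, 4.75% were called, 3.43% higher and 1.32% lower, so 1 of 6 is too few to be read against that share. All 6 estimates were positive, with a median log2 fold change of 0.09, but without replicate 1 those of Nrp2 (-0.036) and Tie1 (-0.15) were negative. Over all genes tested the median was 0.0017, and 50.6% of the estimates were positive.

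Nrp1, which binds VEGF-A and semaphorin 3A, had 15.6, 17.3 and 6.99 CPM (counts scaled to library size) in acLDL-low and 19.0, 23.6 and 8.90 in acLDL-high. The acLDL-high value was higher in 3 of 3 pairs, by 0.29, 0.45 and 0.35 on the log2 scale, but the populations overlapped across occasions because both replicate 3 libraries were low. Means were 13.3 ± 5.53 CPM in acLDL-low and 17.2 ± 7.51 in acLDL-high (SD, n = 3 each). On the log2 scale the difference was 0.36 with a standard error of 0.07, or 1.29-fold (95% interval 1.16 to 1.42) with an edgeR adjusted p of 0.00819. Of the genes tested, 541 (4.30%) had a higher log2 fold change, and the median absolute log2 fold change was 0.073. The call, though not the estimate, depended on pairing by occasion and on replicate 3. Leaving out replicate 3 gave 0.37 on the log2 scale and an adjusted p of 0.0767, in a fit that called 126 genes where the main fit called 597. Leaving out the block gave 0.37 and an adjusted p of 1.00, in a fit in which edgeR called 0 genes (45 at an unadjusted p under 0.05). DESeq2 with the block called Nrp1 (adjusted p 0.00622).

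**Figure D3:**
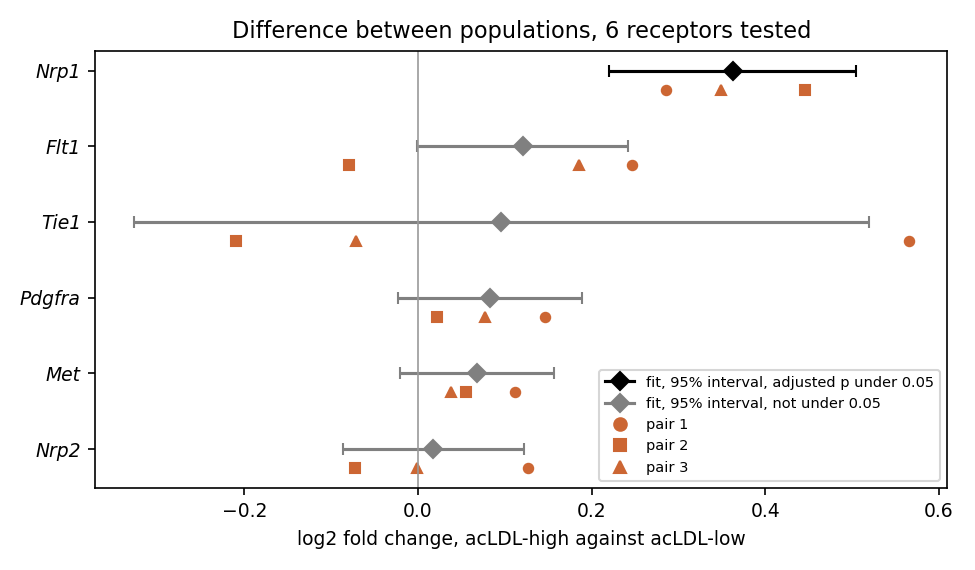
Log2 fold change of acLDL-high against acLDL-low for the 6 receptors tested, with the edgeR estimate and its 95% interval (diamond and bar; black where the adjusted p is under 0.05) above the 3 within-pair differences in log2 CPM (orange symbols by replicate number). Nrp1 lies at 0.36 with all 3 pairs to the right of 0, and the other 5 intervals include 0.

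Nrp2, by contrast, had 670, 833 and 830 CPM in acLDL-low and 732, 792 and 829 in acLDL-high, higher in 1 of 3 pairs. Means were 778 ± 92.9 and 784 ± 49.0 CPM (SD, n = 3 each). Its log2 fold change was 0.02 (standard error 0.05, edgeR adjusted p 0.893). The 95% interval ran from 0.941-fold to 1.09-fold. The difference between the neuropilins was taken within each library as the log2 ratio of Nrp1 to Nrp2 per length. That ratio was -5.15, -5.31 and -6.62 in acLDL-low and -4.99, -4.79 and -6.27 in acLDL-high, and rose in 3 of 3 pairs, by 0.16, 0.52 and 0.35. The mean difference was 0.34 ± 0.18 (SD, n = 3 pairs). The exact two-sided sign-flip permutation test gave p = 0.25, the smallest that 3 pairs allow, so the unequal change was not established by this test. Nrp1 made up from 0.835% (95% Wilson interval 0.764 to 0.912) to 2.89% (2.76 to 3.03) of the neuropilin counts in a library.

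Flt1 had 117, 78.7 and 134 CPM in acLDL-low and 139, 74.4 and 153 in acLDL-high. The acLDL-high value was above its partner in replicates 1 and 3, by 0.25 and 0.19 on the log2 scale, and below it in replicate 2, with a log2 difference of -0.08. Means were 110 ± 28.4 and 122 ± 41.8 CPM (SD, n = 3 each). On the log2 scale the difference was 0.12 (standard error 0.06, edgeR adjusted p 0.265), and its 95% interval reached from just below 0 to 0.24. The Flt1 result depended on which pair was left out. Without replicate 2 the estimate was 0.21 (edgeR adjusted p 0.00344), in a fit that called 869 genes where the main fit called 597. Without replicate 1 it was 0.057 (adjusted p 0.688) and without replicate 3 it was 0.088 (0.669).

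Met, Pdgfra and Tie1 did not pass the test. Met had 137, 249 and 128 CPM in acLDL-low (mean 171 ± 67.5, SD, n = 3) and 148, 259 and 132 in acLDL-high (179 ± 69.2), a log2 fold change of 0.07 (95% interval -0.02 to 0.16, edgeR adjusted p 0.402). Pdgfra had 36.2, 28.1 and 40.6 CPM in acLDL-low (34.9 ± 6.34) and 40.0, 28.5 and 42.8 in acLDL-high (37.1 ± 7.57), a log2 fold change of 0.08 (-0.02 to 0.19, adjusted p 0.393). For both, the acLDL-high library was the higher of the pair in 3 of 3 pairs, as it was for 20.9% of all genes tested. Tie1 had 1.19, 2.03 and 0.928 CPM in acLDL-low and 1.77, 1.75 and 0.883 in acLDL-high, and its interval was the widest of the 6 (-0.33 to 0.52, adjusted p 0.846). Without replicate 1 the Tie1 estimate turned to -0.15.

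The receptor levels also varied between occasions. Averaged over both populations, Nrp1 varied 2.56-fold between its highest and lowest occasion, Tie1 2.05-fold, Met 1.95-fold, Flt1 1.87-fold, Pdgfra 1.47-fold and Nrp2 1.18-fold. The same range had a median of 0.45 on the log2 scale over all genes tested, and 17.4% of them exceeded 1. On that scale Nrp1 was at 1.35 and Tie1 at 1.04, while Nrp2 was at 0.24. The receptors did not move together. Nrp1, Met and Tie1 were highest on occasion 2 and lowest on 3, whereas Flt1 and Pdgfra were highest on 3 and lowest on 2. The design does not say what differed between occasions, and replicate numbers carry no order.

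**Figure D4:**
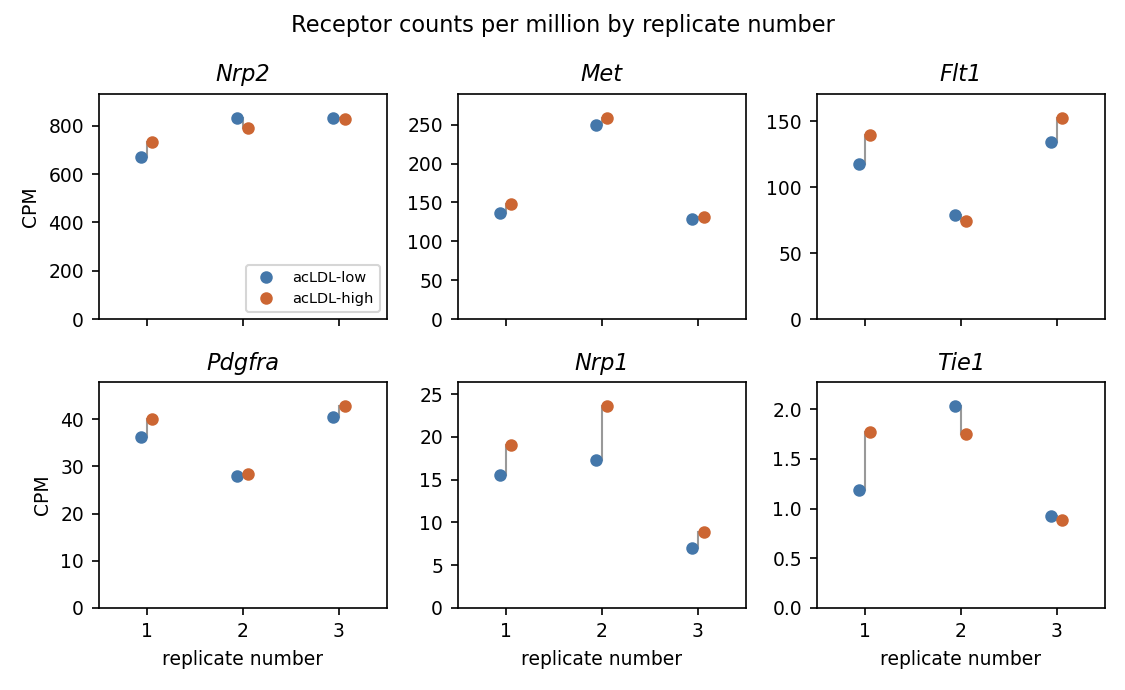
CPM of the 6 tested receptors on each of the 3 occasions (replicate number), acLDL-low in blue and acLDL-high in orange, with a grey line joining the pair from 1 occasion; vertical axes start at 0 and differ between panels. The pairs lie close together for Met, Pdgfra and Nrp2, Nrp1 is higher in acLDL-high on each occasion, and Met is highest where Flt1 and Pdgfra are lowest.

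The same pattern set the correlations between receptors, given as a description over 6 libraries that share 3 occasions. Flt1 and Pdgfra had a Pearson r of log2 CPM of 0.99 (Spearman 0.89), and each was opposite to Met (r of -0.95 for Flt1 and -0.96 for Pdgfra). Nrp1 and Tie1 had an r of 0.88. Among 10537 protein-coding genes, the closest in pattern to Nrp1 were Abcc5, Dzip3 and Srp14 (r of 0.996 each), and 150 genes reached an r of 0.95. For Flt1 they were Ptges, Map3k5 and F13a1 (0.999, 0.998 and 0.998, with 552 genes at 0.95 or more). For Pdgfra they were Tmem51, Sspn and Cdc42ep4 (0.999, 0.997 and 0.997, of 615), for Met Tomm22, Cfap43 and Mbnl3 (1.00, 0.999 and 0.999, of 1181) and for Nrp2 Phf2, Ociad1 and Pomt2 (0.994, 0.987 and 0.987, of 53). None of the 3 nearest genes of Nrp1 passed the test between populations (adjusted p from 0.0919 to 0.494).

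Several ligands of these receptors rose in acLDL-high cells. Of 21 ligand symbols 20 were found and 16 tested, and 4 were higher in acLDL-high cells with 0 lower (edgeR adjusted p under 0.05). Beside this, 3.43% of all genes tested were called higher and 1.32% lower. Without adjustment 7 were higher and 1 lower, DESeq2 called 2 higher and 0 lower, and the median log2 fold change was 0.11. Pdgfb, a ligand of both PDGF receptors, had 74.8, 39.5 and 35.8 CPM in acLDL-low and 106, 59.7 and 44.1 in acLDL-high, higher in each pair, with a log2 fold change of 0.47 and an adjusted p of 0.000456. Angpt1, the activating TEK ligand, rose by 0.35 on the log2 scale (adjusted p 0.0313) and ranged from 3.35 CPM in acLDL-low replicate 2 to 30.8 in acLDL-high replicate 1. Pdgfc, a PDGFRA ligand, rose by 0.25 (adjusted p 0.0332).

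Vegfa, the principal angiogenic VEGF and a ligand of FLT1, KDR and NRP1, had 135, 138 and 208 CPM in acLDL-low and 152, 152 and 230 in acLDL-high, with a log2 fold change of 0.15 and an adjusted p of 0.0481. Leaving out replicate 1, 2 or 3 gave Vegfa an adjusted p of 0.130, 0.0548 and 0.192, so this call needed all 3 occasions. Angpt1 and Pdgfc were not called without replicate 1 (0.280 and 0.0775) or without replicate 3 (0.229 and 0.214), nor by DESeq2 with the block (0.0606 and 0.0757), while Pdgfb was called in each case. Ligand and receptor were not always read together. Angpt1 averaged 2.36 RPKM over the libraries and Pdgfb 14.4, whereas Tek had 0 to 2 counts and, of the PDGF receptors, Pdgfra was read and Pdgfrb was not beyond 2 counts. Hgf, the ligand of MET, had the converse pattern, with 0 counts in all 6 libraries beside 8982 to 20132 counts of Met.

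Genes listed for HGF activation or its inhibition were measured instead, and HGF activation itself was not. Of 11 such genes 5 were tested, 3 were higher in acLDL-high cells and 0 lower, with a median log2 fold change of 0.20. The shares over all genes tested were 3.43% higher and 1.32% lower. Plau, the urokinase protease, had 166, 484 and 253 CPM in acLDL-low and 228, 576 and 335 in acLDL-high, a log2 fold change of 0.37 (edgeR adjusted p 0.000832). Plat, the tissue plasminogen activator, rose by 0.31 (adjusted p 0.0176, and 0.0589 without replicate 3). Spint1, an inhibitor of HGF activation, rose by 0.20 (adjusted p 0.0387, and 0.138 without replicate 1 and 0.257 without replicate 3). The called genes were thus proteases and an inhibitor. St14 and Spint2, from the same list, were tested and not called. St14 changed by 0.10 on the log2 scale (edgeR adjusted p 0.325), with pair differences of 0.20, 0.17 and -0.07, and Spint2 by 0.01 (0.929). Hgfac, with 0 to 9 counts per library, and Hpn, with 0 to 6, were not among the genes tested. A change in HGF activation was not tested.

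None of the tested adaptors, phosphatases, turnover genes or plexins passed the test, which called 4.75% of all genes tested. Of 32 adaptors and proximal effectors tested, 0 were called in edgeR and 0 in DESeq2, with 1 higher and 1 lower at an unadjusted p under 0.05 and a median log2 fold change of 0.0089. The most abundant, Ptk2 (focal adhesion kinase) and Plcg2, had 0.06 (adjusted p 0.496) and 0.04 (0.614). Of 14 genes of receptor phosphatases and turnover 0 were called by either tool (3 higher and 1 lower without adjustment), with Lrig1 at 0.05 (0.613) and Cd2ap at 0.06 (0.454). Of 10 plexins and neuropilin partners 0 were called by either tool (1 higher and 0 lower without adjustment), with Cd44, a MET co-receptor, at 0.12 (0.214, and 0.0292 without replicate 2) and the semaphorin receptor Plxnb2 at 0.03 (0.833). Of 31 other genes of the receptor tyrosine kinase families, 3 were higher and 0 lower (6 and 6 without adjustment, 2 and 0 in DESeq2). Among all genes tested 3.43% were called higher and 1.32% lower. Fgfr2 rose by 0.22 (adjusted p 0.0142), Epha1 by 0.27 (0.0287) and Styk1 by 0.38 (0.0375). Epha1 was not called without replicate 2 (0.138) or 3 (0.120), nor Styk1 without replicate 1 (0.136) or 3 (0.252) or by DESeq2 with the block (0.102).

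**Figure D5:**
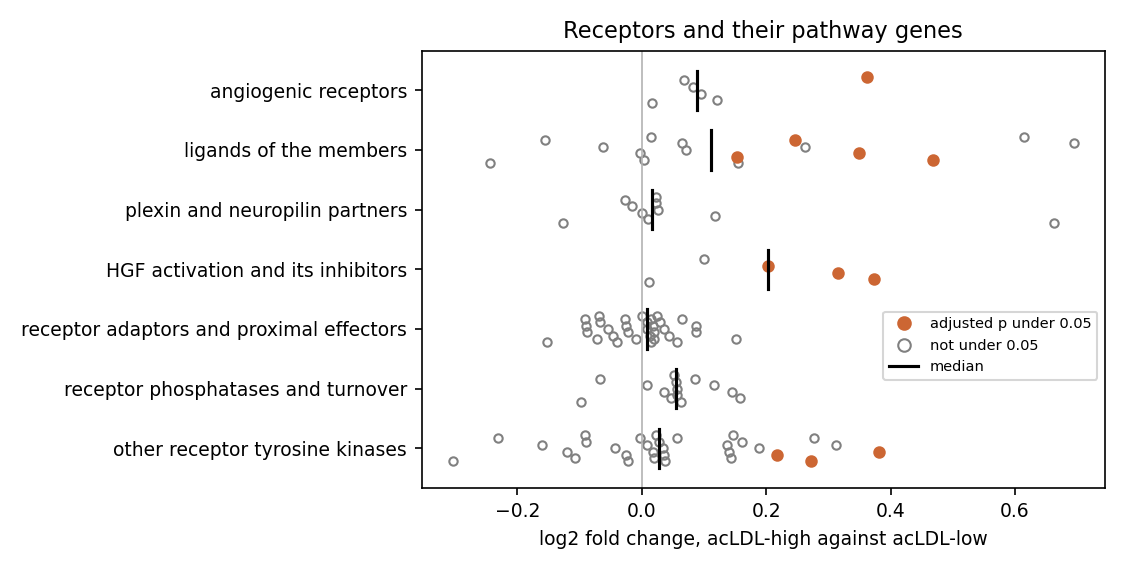
Log2 fold change of acLDL-high against acLDL-low for each tested gene (circles) of the receptors and 6 related lists, filled where the edgeR adjusted p is under 0.05, with the median as a black bar; vertical scatter only separates points. Called genes are all to the right of 0, 4 of them ligands and 3 in HGF activation, and the adaptors center on 0.0089.

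Several of these receptors are themselves markers of vessel cells, so the defining genes of the cell types were read in the same libraries. Mammary epithelial markers were present, with 13 of 14 above 1 RPKM and a summed level of 3624 to 5889 CPM in acLDL-low and 4173 to 6368 in acLDL-high. Of the 13 tested 5 were higher and 0 lower, led by Lcn2 (log2 fold change 0.88), Cldn4 (0.53), Cldn7 (0.30) and Cldn3 (0.28). Over all genes tested the shares were 3.43% higher and 1.32% lower. Cldn7 was not called without replicate 3 (adjusted p 0.0659).

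Of 17 endothelial markers other than the receptors, 6 had 0 counts in every library, among them Emcn, Cldn5, Erg and Sox17. Of the endothelial list 8 were tested and 0 called by edgeR or DESeq2, with 0 higher and 1 lower without adjustment. The share of all genes tested that edgeR called was 4.75%. Pecam1, which encodes CD31, averaged 0.335 CPM in acLDL-low and 0.243 in acLDL-high, and Cdh5, VE-cadherin, 0.170 and 0.197. The summed level without the receptors was 74.7 to 109 CPM in acLDL-low and 78.2 to 109 in acLDL-high. Most of that was Eng (88.3 and 91.4 CPM, adjusted p 0.540), followed by Egfl7 (4.81 and 4.84 CPM, adjusted p 0.971). The ranges of the summed endothelial markers overlapped between the populations, but such ranges include the spread between occasions. The sums were not compared within pairs, and Nrp1 is not on that list.

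Pericyte and fibroblast markers other than the receptors summed to 2.39 to 4.63 CPM in acLDL-low and 3.88 to 6.34 in acLDL-high, with 3 of 12 at 0 counts. Postn alone was called, at 0.880 and 1.73 CPM (log2 fold change 0.88, edgeR adjusted p 0.0394, and 0.330 without replicate 2 and 0.0919 without replicate 3), and DESeq2 with the block did not call it (0.128). Macrophage markers summed to 11.0 to 13.7 CPM in acLDL-low and 12.9 to 16.3 in acLDL-high, most of it Cd14, which rose by 0.32 (adjusted p 0.0246, and 0.0714 without replicate 1 and 0.175 without replicate 3) and was not called by DESeq2 with the block (0.0558). Adgre1, C1qa, C1qb, C1qc and Tyrobp had 0 counts. The part of these markers in the Nrp1 result was not tested.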

How the data were processed

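Poly(A) RNA of 6 sorted 4T1-T populations (3 acLDL-high, 3 acLDL-low, grouped by sample title) was sequenced as stranded paired-end libraries. Per the labels and the study's methods, the authors aligned reads to mm10 with STAR 2.5.2a and deposited raw counts per gene from featureCounts 1.4.3-p1; the annotation release and strand setting are not given in the sources used here. The authors also deposited a DESeq2 1.20.0 comparison of protein-coding genes, with a mean normalized count (signal), log2 fold change, Wald score and p-value for each gene. From it only gene IDs and symbols were used.

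The counts of 12572 genes that passed filterByExpr (from 15973 protein-coding genes) were tested with edgeR 4.0.16 (R 4.3.3; TMM scaling, quasi-likelihood, Benjamini-Hochberg, threshold 0.05). The block was the replicate number. The labels place the experiment on 3 occasions, and deviations of same-numbered libraries correlated at 0.795, 0.846 and 0.799. Standard errors were the log2 fold change over the square root of F. CPM used TMM-scaled library sizes, log2 CPM a prior count of 2, and RPKM the union of exons in GENCODE M21 (GRCm38), which held 53274 of 53379 gene IDs. Protein-coding genes took 98.4% to 98.7% of the counts, and 3 counts equalled 0.0323 to 0.0429 CPM. Libraries of a pair differed by 20.3 to 26.2 chi-square units per degree of freedom, so none was a duplicate. Occasions may be repeat cultures of 1 clone. The block takes up the spread between occasions, so p-values of the fits with the block measure only how consistent the differences within pairs were.

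The receptors and gene lists were chosen with earlier results of these data known. Named from each other list were genes with an adjusted p under 0.05 (the 4 of smallest p where there were more) or, where none was called, the 2 of highest mean CPM. Genes close in pattern had a mean log2 CPM of at least 1 and the 3 highest Pearson r. Other genes were named after their values were seen. Alternatives were DESeq2 size factors, DESeq2 1.42.0 (with the block), no block, other count filters, all genes, transcript length and leaving out each replicate pair.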

Additional observations from a re-analysis of the deposited data

How the results depend on the processing

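Nrp1 was higher in acLDL-high cells under all 9 alternatives tried (log2 fold change from 0.31 to 0.40, adjusted p from 0.000363 to 1.00) and was called in 7 of them. The exceptions were the fit with no replicate block, where 0 genes, 0 receptors and 0 genes of the lists were called and the log2 fold change was 0.37, and the fit without replicate 3. Main counts were 597 genes and 17 list genes. With no low-count filter 932 genes were called. Leaving out 1 replicate pair gave 126 to 869 genes (126 without replicate 3), 0 to 2 receptors (Nrp1 and Flt1 without replicate 2) and 6 to 18 list genes (11 without replicate 1, 6 without replicate 3). In those fits the log2 fold change ranged from 0.057 to 0.21 for Flt1, -0.036 to 0.061 for Nrp2 and -0.15 to 0.29 for Tie1, with Nrp2 and Tie1 negative without replicate 1. Of the list genes named, Plxnb2 ranged from -0.012 to 0.11, Lrig1 from -0.00077 to 0.11 and Egfl7 from -0.084 to 0.12, with Plxnb2 and Egfl7 negative without replicate 1 and without replicate 2, and Lrig1 without replicate 1. These fits have fewer samples, and the cause of the other changes was not tested. Called genes numbered 663 with DESeq2 size factors, 468 with DESeq2 and the block, 584 with at least 10 counts in every library and 666 over all genes of the count table; each called Nrp1 as the 1 receptor. With the length of the longest transcript, 5 receptors again exceeded 1 RPKM, at 116 (Nrp2), 25.8 (Met), 16.8 (Flt1), 5.27 (Pdgfra) and 4.18 (Nrp1). Depth limits Kdr, Flt4, Tek and Pdgfrb, for which no difference could be measured.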
